A study of Bos taurus with 6 samples.

Results

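The genes described here belong to the machinery that moves membrane and receptors through endosomes. They are the ADP-ribosylation factor (ARF) GTPases ARF1 to ARF6, the β-arrestins ARRB1 and ARRB2, and every gene whose symbol starts with ARFGAP, ACAP, ASAP, VPS, CHMP or SNX and continues with a digit. This rule was read from the symbols alone and took 92 of 23015 rows of the count tables. The study compared longissimus thoracis muscle (LT) of Hanwoo (Korean native cattle) steers with a high or a low number of fine marbling particles (NFMP), the small fat flecks seen on the cut muscle. The high-NFMP group held the steers labelled 3-8, 10-8 and 10-9, aged 32.5, 33.8 and 34.5 months. The low-NFMP group held 3-1, 3-3 and 10-16, aged 37.8, 33.7 and 35.4 months. The paper also reports a higher marbling score and a larger rib eye area in the sequenced high-NFMP steers. The groups thus differed in more than NFMP, and these traits cannot be told apart here. All 6 steers were raised conventionally on commercial feed, no treatment separated the groups, and each steer gave 1 library of 3′ mRNA reads from whole muscle. Of the genes that the study named under endocytosis, the rule takes 6, namely ARF3, ARF4, ACAP2, ARRB1, VPS37D and VPS45. The question was whether these 6 stood apart from their own families.

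ARF GTPases recruit coat proteins to membranes when they bind GTP, and ARF GTPase-activating proteins (ARF GAPs) switch them off. The ESCRT complexes, built from VPS and CHMP proteins, sort ubiquitin-tagged receptors into vesicles inside the endosome that are bound for the lysosome. Retromer, retriever and many sorting nexins (SNX) instead carry receptors and transporters out of the endosome, back to the Golgi or to the cell surface. HOPS, CORVET, GARP and EARP are tethers that hold membranes together before they fuse. In muscle and fat cells these routes handle the insulin receptor, the glucose transporter GLUT4 and the fatty acid carrier CD36.

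Library totals lay between 16283873 and 17192750 counts, and the 92 genes together took 0.158% to 0.204% of a library. The muscle fibre markers took 10.2% to 12.1% of each library, and 0 of 8 passed an unadjusted p of 0.05 between the groups. Of all rows, 11.5% passed that limit. The 8 adipocyte markers had positive log2 fold changes, 4 of them at an unadjusted p below 0.05, and their summed normalized counts were 4669 to 11542 in the high-NFMP group and 4386 to 5624 in the low-NFMP group, with none of the 8 at 0. The 8 genes of the heat shock response had negative log2 fold changes, with summed normalized counts of 28254 to 44712 against 45138 to 54806 and no overlap. They ran from -2.15 for HSPA6 to -0.02 for HSP90AA1, the most counted of them, whose groups overlapped. HSPA1A alone had 3184 to 4473 against 8873 to 13307, and sums without it were not computed. The study had named HSPA1A, HSPA6, DNAJA1 and DNAJB1 on these libraries, so the heat shock sums are a description. The summed endothelial, macrophage and fibroblast markers, 5 genes each, overlapped between the groups. Of these 15 genes, AIF1 (macrophage) was higher and PDGFRA (fibroblast) lower at an unadjusted p below 0.05, and the macrophage markers CD163 and CD68 had log2 fold changes of -0.56 and -0.10. The part of these shifts in the results that follow was not tested. In whole muscle, fewer cells of a type and less RNA per cell cannot be told apart. The p-values measure the spread between these single libraries of separate steers.

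Of the 92 genes, 87 had enough counts to be tested. Called genes passed an unadjusted p of 0.05 and a fold change of 2 in edgeR's quasi-likelihood test, which are the limits of the study. There were 6 called genes, 3 with more and 3 with fewer counts at high NFMP, and they were exactly the 6 that the study had named. The study chose these 6 on the same libraries, so this count is not independent evidence. The called share was 6.90% of the 87 members and 3.90% of all 15039 tested rows, the latter made up of 2.53% higher and 1.36% lower. Beyond the 6, edgeR, DESeq2 and limma each called 0 of the other 81. The study had already named the endocytosis genes it called on these libraries, so this count is not independent evidence either. At an unadjusted p below 0.05 alone, edgeR found 12 of the 87 (13.8%, against 11.5% of all rows). The 6 of them beyond the named genes were ARF5, VPS35L and SNX21 higher and SNX3, VPS50 and SNX13 lower. They were 7.41% of the 81, a share that is lowered by taking out the 6 named genes and so is not set against all rows. The groups did not overlap for 15 of the 87 (17.24%), a share near the 17.1% of all rows, and 9 of these 15 were beyond the named genes. ACAP2 was the 1 member past a Benjamini-Hochberg adjusted p of 0.05, a limit that 0.685% of all rows passed.

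By absolute log2 fold change the 6 held ranks 1 to 6, and VPS50 (-0.93), SNX3 (-0.88) and ARF5 (0.75) came next. The study chose the 6 by fold change on these libraries, so their top ranks are a description. The median absolute log2 fold change was 0.19 over the 87 members, 0.17 without the 6, and 0.26 over all tested rows. The median signed value was 0.02 over the members and over all rows. The 95% interval lay inside a 2-fold change in both directions for 66 of the 87 (75.9%) and for 57.3% of all rows. These 66 were all among the 81 beyond the named genes, and for the remaining 15 of the 81 a 2-fold change was not outside the interval. The members also had more counts, with a median of 223.8 normalized counts against 143.7 over all rows, and the part of depth in the smaller fold changes was not tested.

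**Figure D1:**
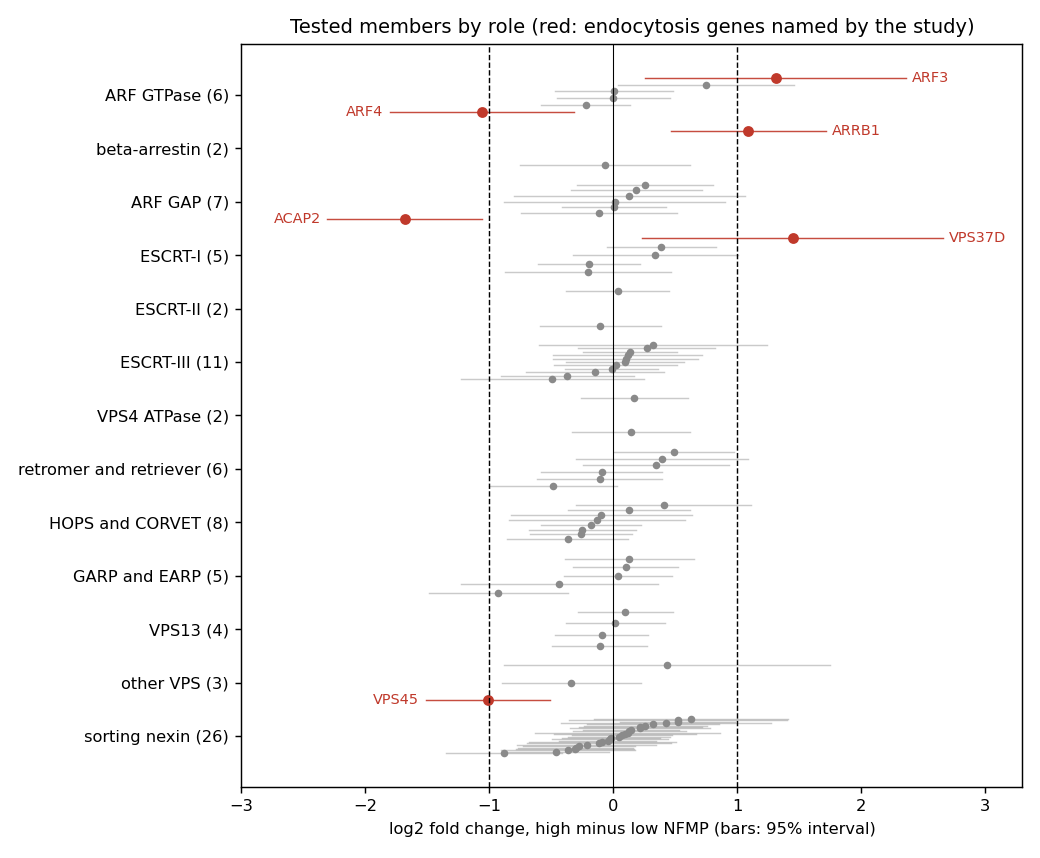
Log2 fold change (high minus low NFMP) of the 87 tested members, one row of points per role, with the number tested in brackets. Bars are 95% intervals, dashed lines mark a 2-fold change, and red marks the 6 genes named by the study, whose points are the 6 outside the dashed lines.

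Among the ARF GTPases, ARF3 rose and ARF4 fell while ARF1, ARF2 and ARF6 did not pass the test. ARF3, which acts with ARF1 at the Golgi, had normalized counts of 28.4, 25.6 and 40.1 in steers 3-8, 10-8 and 10-9, and of 16.27, 6.48 and 15.14 in steers 3-1, 3-3 and 10-16. Every high-NFMP steer lay above every low-NFMP steer, at a level of few reads. The log2 fold change was 1.31 (SE 0.49, unadjusted p = 0.0182, edgeR adjusted p = 0.317). ARF4, which works at the Golgi and on recycling endosomes, had 226, 282.3 and 89.3 against 479.4, 403.5 and 360.4, in the same order of steers. Steer 10-9 was lowest by a wide margin, and the groups did not overlap. Its log2 fold change was -1.06 (SE 0.34, unadjusted p = 0.00934, edgeR adjusted p = 0.251).

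The most counted ARF was ARF1, the coat-recruiting GTPase of the Golgi, with 1123 to 1228 in the high-NFMP group and 1310 to 1414 in the low-NFMP group. The groups did not overlap, but the log2 fold change was -0.22 (SE 0.17) with an unadjusted p of 0.203. ARF6, the ARF of the plasma membrane and the substrate of ACAP2, lay at 204.5 to 241.7 and 195.9 to 250.7, and its log2 fold change was 0.00 (SE 0.21). ARF2 overlapped as well, with a log2 fold change of 0.01. ARF5 had 56.7, 102.2 and 78.2 against 40.2, 46.3 and 54.5. The groups did not overlap by a narrow gap, and the log2 fold change of 0.75 (SE 0.33, unadjusted p = 0.0402, edgeR adjusted p = 0.410) did not reach the fold limit.

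ACAP2, a GAP of ARF6 on endosomes, fell most of all members. Its normalized counts were 116.5, 62.2 and 65.2 in the high-NFMP group and 200, 323 and 261.5 in the low-NFMP group. The highest high-NFMP steer, 3-8, stood well below the lowest low-NFMP steer, 3-1. The log2 fold change was -1.68 (SE 0.29, 95% interval -2.31 to -1.06, edgeR adjusted p = 0.0165), and the low-NFMP level was 3.21-fold the high-NFMP level. The other 6 tested ARF GAPs lay between -0.12 and 0.25, and none of them passed an unadjusted p of 0.05. ACAP3 had 30.4, 21.1 and 47.1 against 40.2, 29.6 and 28.3, a log2 fold change of 0.01 (SE 0.42), so its interval is wide. ASAP1, the most counted of them, had 440.1 to 649.6 against 526.5 to 594.6 and a log2 fold change near 0 (SE 0.20). ASAP2 was the uppermost at 0.25 (SE 0.26), with 145.6 to 229.7 against 137.9 to 208. ACAP1 and ASAP3 were too low to test. Their normalized counts were 6.02 to 6.67 against 8.08 to 19.1 for ACAP1, and 3.01 to 23.3 against 6.48 to 11.5 for ASAP3.

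ARRB1, a β-arrestin that binds activated G protein-coupled receptors and links them to clathrin, rose. It had 155, 97.8 and 147.4 normalized counts in the high-NFMP group and 48.8, 64.8 and 74.7 in the low-NFMP group. The groups were apart, with steer 10-8 the nearest to the low-NFMP steers. The log2 fold change was 1.09 (SE 0.29, unadjusted p = 0.00214, edgeR adjusted p = 0.134). Its paralog ARRB2 had 103.4, 64.5 and 95.3 against 98.6, 118.4 and 58.6, with groups that overlapped fully and a log2 fold change of -0.07 (SE 0.32).

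**Figure D2:**
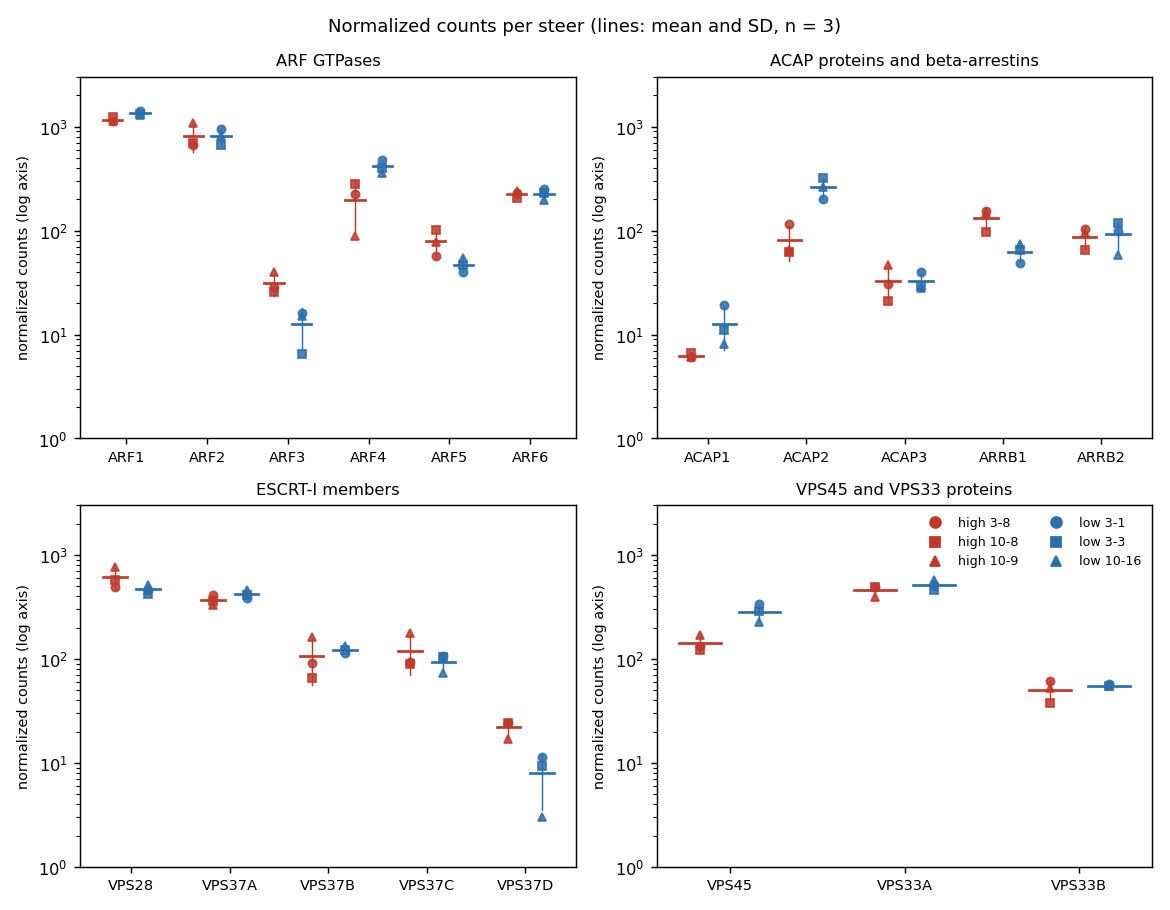
Normalized counts per steer (log axis) of the ARF GTPases, the ACAP and β-arrestin genes, the ESCRT-I members, and VPS45 with VPS33A and VPS33B, with red for high-NFMP and blue for low-NFMP steers and lines for the mean and SD (n = 3). ARF3, ARF4, ACAP2, ARRB1, VPS37D and VPS45 separate the groups, and of the other genes plotted ARF1, ARF5 and ACAP1 (not tested) also do.

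In the ESCRT pathway, 1 of 20 tested members passed both limits, which is near the 3.90% of all rows. It was VPS37D, one of the interchangeable VPS37 subunits of ESCRT-I, with 24.3, 24.5 and 17.1 normalized counts in the high-NFMP group and 11.5, 9.25 and 3.03 in the low-NFMP group. These rest on 17 to 24 reads against 3 to 12 reads, the fewest of the 6 genes, with ARF3 next. The log2 fold change was 1.45 (SE 0.57, unadjusted p = 0.0227, edgeR adjusted p = 0.341), and its 95% interval ran from 0.23 to 2.66. The other VPS37 genes overlapped between the groups, with log2 fold changes of -0.19 (SE 0.19) for VPS37A, -0.20 (SE 0.31) for VPS37B and 0.34 (SE 0.31) for VPS37C. VPS37A was the most counted of the 4, with 328 to 411.4 against 384.7 to 461.4. The value for VPS37C turned to -0.040 without steer 10-9. VPS28, a core ESCRT-I subunit, had 489.5, 581.2 and 761.2 against 460.3, 422 and 518.9, a log2 fold change of 0.39 (SE 0.21, unadjusted p = 0.0792).

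The later ESCRT steps showed no member at an unadjusted p below 0.05. Of all rows 11.5% passed that limit, a share that comes to few genes in so short a list. The ESCRT-II subunits VPS25 and VPS36 had log2 fold changes of -0.10 and 0.04. The 11 CHMP genes, which encode the ESCRT-III filament that pinches vesicles off, lay between -0.49 for CHMP2B (SE 0.35) and 0.32 for CHMP4C (SE 0.43). CHMP3, the most counted, had 1754 to 1894 against 1593 to 2071 and a log2 fold change near 0. Its groups overlapped over their whole range. In steer 10-9, CHMP2B (33.1) and CHMP5 (302.9) were below every other steer, whose lowest values were 68.9 and 613.4. VPS4A and VPS4B, the ATPases that take the filament apart, had log2 fold changes of 0.17 (SE 0.20) and 0.14 (SE 0.22).

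VPS45, a Sec1/Munc18 protein that helps SNARE proteins fuse endosomal membranes, fell. It had 133.8, 122.2 and 168.5 normalized counts in the high-NFMP group and 335.9, 291.5 and 229.2 in the low-NFMP group. The log2 fold change was -1.01 (SE 0.24, unadjusted p = 0.000677, edgeR adjusted p = 0.0733), which is just past the 2-fold limit. VPS33A and VPS33B, the Sec1/Munc18 members of other tethers, overlapped between the groups with log2 fold changes of -0.18 (SE 0.19) and -0.13 (SE 0.33). The symbols VPS72 and VPS9D1 fall under the rule by name, and the former encodes a chromatin protein. Their log2 fold changes were -0.34 (SE 0.26) and 0.43 (SE 0.62).

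Of the 5 GARP and EARP genes, VPS50 was the 1 at an unadjusted p below 0.05, a limit that 11.5% of all rows passed. Its difference from its partners was not tested. VPS50 takes the place of VPS54 in EARP, while VPS51, VPS52 and VPS53 are common to EARP and GARP. VPS50 had 120.6, 95.6 and 124.4 against 289.9, 192.5 and 165.6, with groups that did not overlap. Its log2 fold change was -0.93 (SE 0.26, unadjusted p = 0.00322, edgeR adjusted p = 0.163), under the fold limit. VPS51, VPS53 and VPS54 lay between 0.04 and 0.13, and VPS52 was at -0.44 (SE 0.37), with a 95% interval that includes the value of VPS50. VPS54, the most counted, had 3040, 2026 and 3022 against 2373, 2344 and 2837. Of the 8 HOPS and CORVET genes, 0 passed an unadjusted p of 0.05, and 6 of the 8 had negative log2 fold changes. At 11.5% of all rows, few would pass in so short a list. They ran from -0.37 for VPS39 to 0.40 for VPS18. Their summed normalized counts were 1641, 1491 and 1604 in the high-NFMP group and 1862, 1677 and 1817 in the low-NFMP group. These sums did not overlap, and neither did those of the ARF GTPases or of VPS45, VPS72 and VPS9D1. Among single rows, 17.1% did not overlap, and no such share was found for sums of other genes. The 4 VPS13 genes, lipid transfer proteins, lay between -0.11 and 0.10.

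In retromer, the VPS35, VPS29 and VPS26 trimer, 0 of 4 genes passed an unadjusted p of 0.05, a limit that 11.5% of all rows passed. VPS29 had 113.5, 97.8 and 139.4 against 164.6, 173 and 153.5. These groups did not overlap, but the log2 fold change was -0.48 (SE 0.24, unadjusted p = 0.0639). VPS35 and VPS26A overlapped, with log2 fold changes of -0.10 and -0.11. VPS26B had 0.34 (SE 0.28), with steer 10-9 highest at 513.5 and the other 5 steers between 223 and 350.3. VPS35L, the VPS35 counterpart in retriever, had 189.5, 203.4 and 245.7 against 164.6, 137.9 and 152.4. These groups did not overlap, and the log2 fold change was 0.49 (SE 0.22, unadjusted p = 0.0464, edgeR adjusted p = 0.427). VPS26C, its partner in retriever, overlapped at 0.39 (SE 0.32).

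Of the 29 sorting nexins, 26 were tested and 0 were called, a count that lies near the 3.90% of all rows in so short a list. SNX3, which binds the endosomal lipid phosphatidylinositol 3-phosphate and loads cargo onto retromer, had 867.4, 695.7 and 541.6 normalized counts in the high-NFMP group and 1199, 1619 and 1065 in the low-NFMP group. Its groups did not overlap. The log2 fold change was -0.88 (SE 0.22, unadjusted p = 0.00115, edgeR adjusted p = 0.0978). SNX13 had 640.5, 487.8 and 401.2 against 705.2, 724.6 and 680.5, a log2 fold change of -0.46 (SE 0.20, unadjusted p = 0.0363). SNX21 had 447.9, 445.6 and 620.8 against 297.6, 438.6 and 320, a log2 fold change of 0.52 (SE 0.22, unadjusted p = 0.0311). In SNX21 the steers 3-3 and 10-8 lay next to each other at the border of the groups. SNX30 had 158.5 to 195.6 against 208.2 to 240.3 without overlap, but at a log2 fold change of -0.30 it did not pass an unadjusted p of 0.05. SNX10 was the uppermost of the sorting nexins at 0.63 (SE 0.37), with steer 10-9 at 102.3 and the other 5 steers at 33.5 to 55.6. The SNX-BAR proteins SNX1, SNX2, SNX5 and SNX6, which bend the membrane into retromer tubules, lay between -0.37 and 0.14. At an unadjusted p below 0.05 there were 0 of these 4, and 11.5% of all rows. SNX20, SNX31 and SNX33 were not tested, since no steer had more than 6.08 normalized counts.

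**Figure D3:**
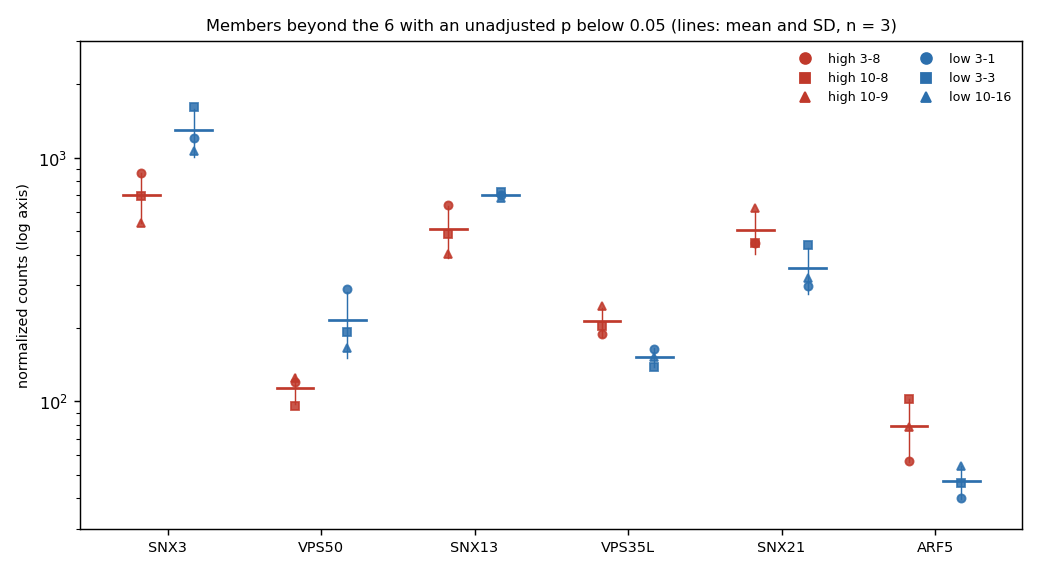
Normalized counts per steer (log axis) of the 6 members beyond the named genes at an unadjusted p below 0.05 (SNX3, VPS50, SNX13, VPS35L, SNX21 and ARF5), with red for high-NFMP and blue for low-NFMP steers and lines for the mean and SD (n = 3). SNX3 and VPS50 lie lower in all 3 high-NFMP steers, at log2 fold changes of -0.88 and -0.93.

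Set against a paralog in the same steer, 4 of the 6 named genes still separated the groups. These ratios are descriptions, since the first gene of each pair was chosen for its difference. The paralogs ARF1 and ARF5 themselves did not overlap between the groups, each in the direction opposite to ARF3 and ARF4, which widens both ratios. They compare steers for 1 pair of genes and not the levels of the 2 genes, which differ in how many reads a transcript gives. The ratio of ACAP2 to ACAP3 counts was 3.83, 2.95 and 1.38 in the high-NFMP group and 4.98, 10.9 and 9.25 in the low-NFMP group. The ratio of ARRB1 to ARRB2 was nearly level in the high-NFMP group at 1.5, 1.52 and 1.55, and it was 0.495, 0.547 and 1.28 in the low-NFMP group. Steer 10-16 was thus near the high-NFMP steers in this ratio. The ratios of ARF3 to ARF1 (0.0208 to 0.0355 against 0.00483 to 0.0116) and of ARF4 to ARF5 (1.14 to 3.98 against 6.61 to 11.9) did not overlap either. The ratios of VPS37D to VPS37C (0.0966 to 0.275 against 0.0411 to 0.108) and of VPS45 to VPS33A (0.250 to 0.427 against 0.396 to 0.657) did overlap. Steer 10-9 held the border value on the high-NFMP side in both.

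Family sums joined members with fold changes in opposite directions. The 6 ARF genes summed to 2326, 2538 and 2667 normalized counts in the high-NFMP group and to 3162, 2693 and 2744 in the low-NFMP group, just without overlap. As a share of all reads, without the TMM scaling, the same sums overlapped. The β-arrestin sums overlapped, with 258.4, 162.2 and 242.7 against 147.4, 183.2 and 133.3. Summed over all 92 genes the values were 28934 to 32263 and 31731 to 32764, and these also overlapped.

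Steer 10-9 had the highest value of the 6 steers for 24 of the 87 tested members and the lowest for 18, where an even share would be 14.5 each. Steer 10-8 had the most lowest values, 21. Counting both extremes, 10-9 held the most (42) and 10-16 the fewest (19). How often each steer was extreme over all tested rows was not counted, so this may not be particular to the members. Called by both limits, ACAP2 passed in all 14 other settings, including each fit without 1 steer. Its adjusted p was 0.0165 with all steers, between 2.33e-05 and 0.109 over the alternatives, and above 0.05 without 10-8, 10-9, 3-3 or 10-16. ARF3 lost its call without 10-9 and without 3-3. ARF4 lost it without 10-9, where the log2 fold change was -0.69, and without 3-1. ARRB1 lost it without 3-8 and without 3-1, but its log2 fold change stayed between 0.93 and 1.30 over the fits without 1 steer, with a largest unadjusted p of 0.0128. VPS37D lost it without 3-8, 10-8 and 10-16 through its p, while its log2 fold change stayed between 1.101 and 1.798. VPS45 lost it in 4 of 6 such fits (3-8, 10-8, 3-1 and 3-3), where its log2 fold change stopped just short of the limit. With age as a term, ARRB1 (0.89), VPS37D (1.54, unadjusted p = 0.0644) and VPS45 (-0.86) lost the call. With a term for the leading number of each label (3 or 10, found in both groups, its meaning not given), ARF4 (-0.96) and VPS45 (-0.94) lost it. In the other direction, SNX3 was called without 3-8 (-1.07) and with age as a term (-1.17), and VPS50 was called without 3-3 (-1.01) and without 10-16 (-1.05). No setting turned the sign of any of the 6, of SNX3 or of VPS50.

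**Figure D4:**
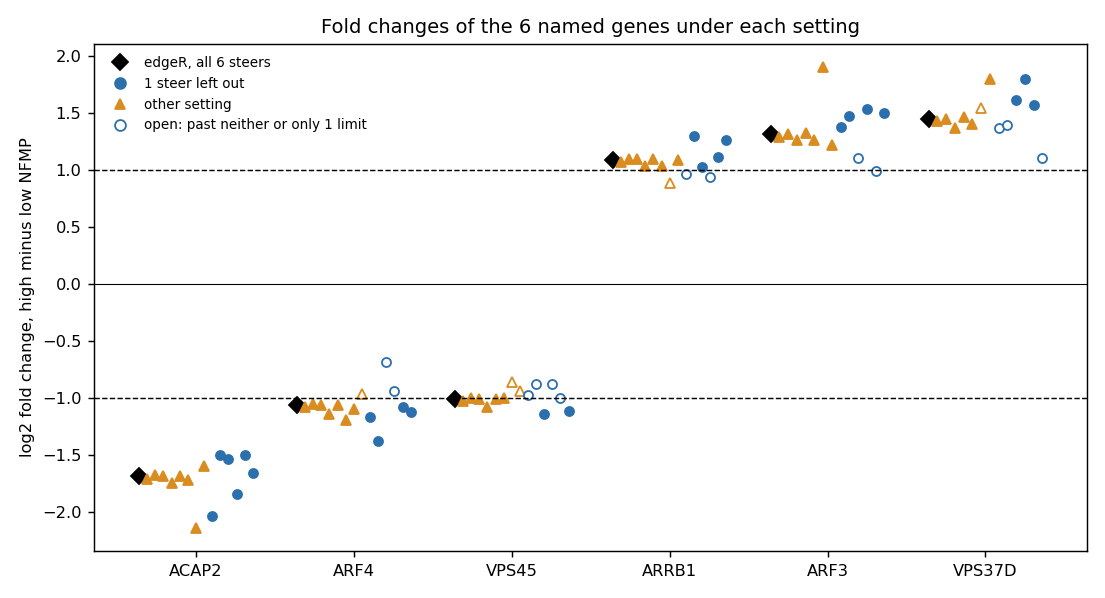
Log2 fold change (high minus low NFMP) of the 6 named genes with all steers (diamonds), with 1 steer left out (circles) and under other settings (triangles). Open symbols passed neither or 1 of the limits, dashed lines mark a 2-fold change, and ACAP2 is filled throughout while the other 5 each have open symbols.

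Some members share genome positions with other counted genes, and their reads may not be their own. In the RefSeq gene table, 17 of the 92 overlapped another counted gene, and none of the 6 did. ARRB2, the paralog set against ARRB1, overlapped PELP1, with 58 to 128 and 143 to 285 reads. Whether reads of one entered the count of the other was not tested. SNX22 had 201, 185, 202, 196, 220 and 167 reads in steers 3-8, 10-8, 10-9, 3-1, 3-3 and 10-16, and PPIB, which encodes the chaperone cyclophilin B, had 204, 186, 203, 195, 225 and 168. The values differed by at most 2.27% of the SNX22 count in any steer, so the count of SNX22 cannot be told apart from that of PPIB. SNX21 and ACOT8, a peroxisomal thioesterase gene, ran close as well, with a largest difference of 12.2% of the SNX21 count. SNX21 is 1 of the 6 members beyond the named genes at an unadjusted p below 0.05, so its value is uncertain. VPS4A and its neighbour COG8 did not run together, at 745 to 1213 and 167 to 221 reads.

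**Figure D5:**
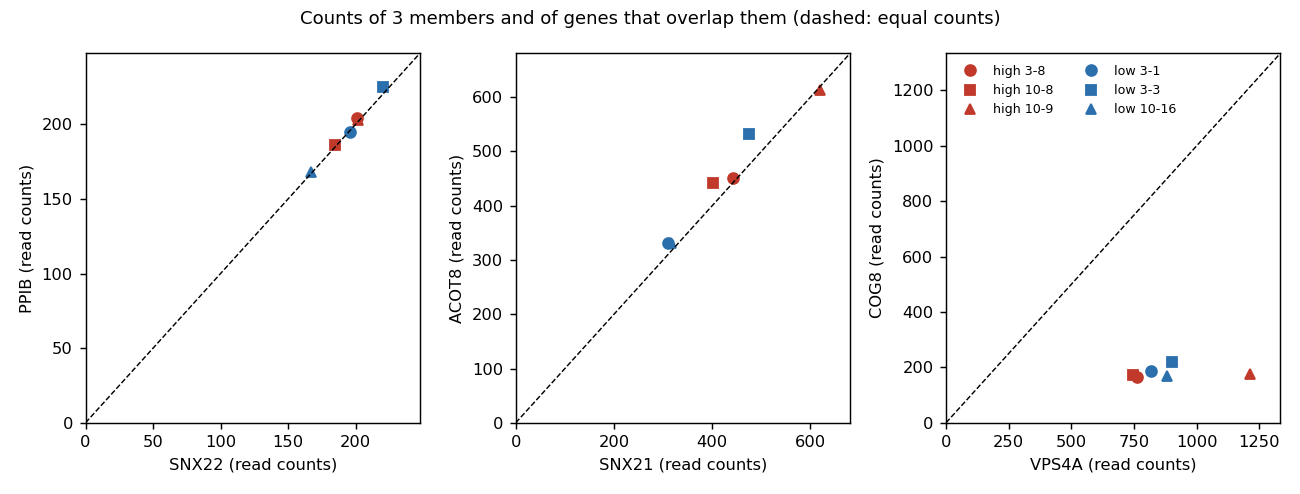
Read counts per steer of 3 members (horizontal axes) and of a gene that overlaps each (vertical axes), with red for high-NFMP and blue for low-NFMP steers and a dashed line at equal counts. SNX22 and PPIB lie on the line, SNX21 and ACOT8 lie close to it, and VPS4A and COG8 lie away from it.

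Endocytic genes outside these families were read for comparison from a fixed list of 104 genes, of which 103 were in the tables and 95 were tested. By both limits edgeR called 0 of the 95, as did DESeq2 and limma, where 3.90% of all rows were called. The list held none of the genes that the study had named under endocytosis on these libraries. Low shares at either limit were thus partly fixed in advance. At an unadjusted p below 0.05 there were 4 higher (CYTH2, INSR, CAVIN1 and EHD2) and 5 lower (ARFGEF1, LNPEP, PDCD6IP, RAB10 and VTI1A), a share of 9.47% against 11.5%. Among the 11 other ARF GAPs and the 14 clathrin and adaptor genes tested, 0 passed that limit. Of the 12 tested ESCRT partners 1 did, namely PDCD6IP, which encodes ALIX (log2 fold change -0.47). Of the 4 SNARE partners of VPS45 it was VTI1A (-0.42). INSR, the insulin receptor, was named after its values were seen. It had 1936, 1772 and 2134 normalized counts against 997.1, 928.1 and 1163, a log2 fold change of 0.92 (SE 0.18, edgeR adjusted p = 0.0301). SLC2A4, which encodes GLUT4, had 893.8, 847.9 and 955.8 against 376.1, 954.1 and 666.3. The low-NFMP steer 3-3 lay among the high-NFMP steers, and the log2 fold change of 0.43 had an unadjusted p of 0.133. CD36 overlapped, with 2015 to 3078 against 2628 to 3002 and a log2 fold change of -0.13.

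The endocytosis genes of the study that lie outside the rule, HSPA1A and HSPA6, are heat shock chaperones. HSPA1A had 4473, 3184 and 4267 normalized counts in the high-NFMP group and 10734, 13307 and 8873 in the low-NFMP group. HSPA6 had 7.09, 5.56 and 20.1 against 59.3, 37.9 and 50.5. Both groups of values were apart, with log2 fold changes of -1.46 and -2.15. Both were among the 4 of 8 heat shock genes called lower, with DNAJA1 and DNAJB1. Of all rows, 1.36% were called lower. The study had named these 4 genes on the same libraries, so their count is not independent evidence and is not set against that share.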

How the data were processed

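The authors made 3′ mRNA libraries of LT and deposited raw counts of reads for each gene symbol, 1 table per steer. Their paper names TopHat2 with HTSeq in one place and Bowtie2 in another, and the submitters' processing notes name Bowtie2 and bedtools. These sources differ on the tool behind the counts, and any use of strand is not given in them. Groups came from the group label of each steer.

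Analysis used edgeR 4.0.16 under R 4.3.3. Its default filter (minimum count 10, minimum total 15) kept 15039 of 23015 rows and at least 99.85% of the counts of a library. TMM factors lay between 0.915 and 1.083, and the groups were compared with the robust quasi-likelihood test. The common biological coefficient of variation was 25.1%. Counts called normalized were brought to the mean effective size of the libraries. Called rows passed an unadjusted p of 0.05 and a fold change of 2, and Benjamini-Hochberg adjustment covered all tested rows. An exact permutation test of 3 against 3 cannot go below p = 0.1 and was not used. Replicate libraries of a group differed by 35.5 to 61.5 times counting noise, so none was a copy of another. Of the symbols, 77 stand in more than 1 row, none of them a member.

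The alternatives were DESeq2 1.42.0, limma 3.58.1 after quantile normalization (prior count 1), RLE factors, unscaled library totals, no filter, at least 10 counts in each library, age or the first label number as a term, and leaving out each steer. The fits were tested on simulated data. The genes named are the 6 of the study, all ARF, β-arrestin, ACAP and VPS37 genes, members at an unadjusted p below 0.05, the extremes and the most counted gene of each role, called endocytic genes, SLC2A4 and CD36. Others (CHMP5, VPS28 and VPS29, for example) were chosen after their values were seen. The members and lists were chosen with earlier results of these data known. Gene overlaps were read from the RefSeq table of ARS-UCD2.0, where all 92 symbols matched. That is not the build of the study, so no coordinates are given.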

Additional observations from a re-analysis of the deposited data

How the results depend on the processing

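Of 82 values of the 6 named genes under the alternatives, 64 kept the call and 0 changed sign. Of 613 values of 44 named genes, 590 kept direction and call, 18 lost the call, 4 gained it and 1 with a log2 fold change beyond its SE turned, VPS37C at -0.040 without steer 10-9 (its range without 1 steer was -0.040 to 0.55). A further 47 values, within 1 SE of 0 with all steers, changed sign without a call. The count of called members was 6 and lay between 3 (without 3-1) and 6 with 1 steer left out. It was 4 with age as a term (ARRB1, VPS37D and VPS45 lost, SNX3 gained), with the first label number as a term (ARF4 and VPS45 lost) and with 10 counts in every library, where ARF3 and VPS37D were not tested. The split of 3 higher and 3 lower became 1 and 3 with age and 3 and 1 with the label number. Called members beyond the 6 numbered 1 with age as a term, and 0 to 1 with 1 steer left out. Members past the adjusted limit numbered 3 without a filter (ACAP2, SNX3 and VPS45), 4 with DESeq2 (those and ARRB1) and 0 to 1 with 1 steer left out. The median log2 fold change, with and without the 6, lay between -0.024 and 0.111 with 1 steer left out, the upper value without 10-8. Called endocytic genes outside the families numbered 1 without a filter (IQSEC3) and 0 to 3 with 1 steer left out, with INSR without 10-8, and CYTH2, EHD3 and INSR without 10-16. The causes were not tested. The labels give no replicate numbers, so steers were not paired. The first label number, which both groups share and whose meaning is not given, was fitted as a term as above. With few reads, as in ARF3 and VPS37D, counting error is large, and reads carry no molecular identifiers, so they are not independent molecules.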
